A study of Homo sapiens with 4 samples.

Results

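The genes described here are 10 core genes of the NF-kappaB pathway, out of 63677 Ensembl genes listed in each count file. They are listed by symbol, with no threshold on a measured value, and comprise the 5 subunits *NFKB1*, *NFKB2*, *REL*, *RELA* and *RELB*, the inhibitors *NFKBIB*, *NFKBIE* and *TNFAIP3*, and the kinases *CHUK* and *IKBKE*. RNAseq read counts were available from 4 libraries, 2 of FLO-1 parental cells and 2 of FLO-1LM cells. FLO-1 is a human cell line of esophageal adenocarcinoma in long-standing use, and FLO-1LM is its subline, grown out of a liver metastasis after repeated passage of FLO-1 tumors through immunodeficient NSG mice. No other treatment separated the groups, and both lines were harvested from culture at 80% confluency, 24 hours after the medium was changed. FLO-1LM is therefore 1 subline of 1 parental line. It is not stated if a line's libraries are separate cultures, so p-values measure only the spread between these libraries, which may be technical. No batch is given in the labels, and a batch that followed the line cannot be told apart from it.

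NF-kappaB proteins act as dimers of the 5 subunits. *RELA*, *REL* and *RELB* encode subunits with a transactivation domain, while *NFKB1* and *NFKB2* encode the precursors p105 and p100, which are processed to p50 and p52. Inhibitory IkappaB proteins hold the dimers in the cytoplasm until the IkappaB kinases mark the inhibitor for degradation, and the released dimers induce, among others, genes of inflammation and cell survival and several of their own inhibitors. In the noncanonical branch, NIK and IKKalpha drive the processing of p100 and release dimers that contain RELB. Most of this control acts on proteins and is not seen in transcript counts.

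Total counts per library ran from 19060310 to 25920336, and 17143 genes passed the filter on low counts and were tested. Levels are given as CPM, the count relative to the TMM-scaled library size. The chi-square statistic over genes was 9.16 times its degrees of freedom between the FLO-1LM libraries, 4.37 times between the parental libraries and 10.6 to 13.4 times between libraries of different lines, all above the sampling noise of the counts. Of 6 carcinoma markers, 4 (*KRT8*, *KRT18*, *KRT19* and *CDH1*) were called lower in FLO-1LM. The summed level of the list was 2040 to 2220 CPM in FLO-1LM and 2440 to 2470 CPM in parental cells. Most of that sum was the mesenchymal gene *VIM*, at 1760 and 1580 CPM in FLO-1LM and 1560 and 1600 CPM in parental cells. *VIM* was not called (log2 fold change 0.08). *EPCAM*, a defining epithelial marker, had only 3 to 12 counts in any library. Summed markers of leukocytes (2.43 to 3.43 CPM), fibroblasts (10.1 to 13.0 CPM) and endothelium (0.0386 to 0.315 CPM) were low in all 4 libraries. *PTPRC*, *COL3A1*, *DCN* and *KDR* were at 0, while *COL1A1* (9.7 to 12.8 CPM) made up nearly all of the fibroblast sum. Hepatocyte markers summed to 13.4 to 14.6 CPM in FLO-1LM and 16.5 to 18.3 CPM in parental cells, with *ALB*, *TTR* and *CYP3A4* at 0. Nearly all of that sum was *SERPINA1*, at 14.8 and 13.2 CPM in FLO-1LM and 18.1 and 16.3 CPM in parental cells. Mitochondrial genes took 9.57% and 9.96% of the counts in FLO-1LM and 7.93% and 8.31% in parental cells. The part of these markers in the results was not tested, while without the mitochondrial genes none of the NF-kappaB genes passed the test either.

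Several of the 10 genes are known targets of NF-kappaB themselves, and the DNA element that the dimers bind, the kappaB site, can be read in their promoters. RefSeq promoter windows of 300 bases (250 before and 50 after each annotated start, from the GRCh38.p14 table) were found for 8 of the 10 genes, as 13 windows, and each window was placed by exact match on GRCh37. *RELB* and *NFKBIE* had no window. The kappaB consensus, a degenerate element of 10 bases, was searched on both strands and was present in 6 of the 13 windows (46.2%), compared with 2075 of all 35116 windows (5.91%). By gene, it was present in 5 of 8 (62.5%), compared with 7.09% of all genes with a window. The following stretches are shown because they are the kappaB matches of the 5 genes that had one. Each is 30 bases of the plus strand, 5′ to 3′, with the 10 matching bases in capitals.
NFKB1: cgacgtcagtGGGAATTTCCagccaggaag
REL: cgtcagccgcGGGAAATTCCcctcccgcca
NFKB2 upstream: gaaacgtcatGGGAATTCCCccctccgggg
NFKB2 middle: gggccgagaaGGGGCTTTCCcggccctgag
NFKB2 downstream: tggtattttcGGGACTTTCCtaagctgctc
TNFAIP3 upstream: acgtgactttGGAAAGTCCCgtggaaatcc
TNFAIP3 downstream: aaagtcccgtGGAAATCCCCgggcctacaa
NFKBIB: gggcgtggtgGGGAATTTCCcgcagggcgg

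The *NFKB1* stretch (chr4:103422457-103422486) ends directly before the annotated gene, and its match begins at position -49 from the start site. The *REL* stretch (chr2:61108652-61108681) lies in an untranslated exon of the lifted annotation, with the match at -47 from the RefSeq start. In *NFKB2*, the upstream (chr10:104154218-104154247) and middle (chr10:104154247-104154276) stretches lie in an untranslated exon, at -107 and -78 from one start. The downstream stretch (chr10:104155431-104155460) also lies in an untranslated exon, at -21 from a later start. The *TNFAIP3* matches (chr6:138188319-138188348 and chr6:138188331-138188360) read as kappaB on the minus strand, at -67 and -55 from the start. The *NFKBIB* match (chr19:39390571-39390600) begins at -28 from the downstream one of its 2 annotated starts, inside an intron by the annotation. *NFKB1* and *NFKBIB* carry the same 10 bases, and *REL* carries them on the minus strand, in a match that is not printed. Matches that overlap a printed one by all but 1 base, and a further match in an *NFKB2* intron, are not printed. No match to the consensus was found in the windows of *RELA*, *CHUK* and *IKBKE*. The wider pattern GGGNNNNNCC, which contains the consensus, was present in all 13 windows and in 58.7% of all windows. A match describes the sequence only and was not measured as a bound site.

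None of the NF-kappaB genes passed the test between the lines. *NFKB2*, *RELA* and *NFKBIB* had log2 fold changes within 0.02 of 0, the other 6 tested genes lay between -0.16 and 0.13, and *IKBKE* was listed at 0 and not tested. In edgeR's quasi-likelihood test, 0 of 9 genes had an adjusted p below 0.05, whereas 2.23% of all genes tested did (0.402% higher and 1.83% lower in FLO-1LM). Without adjustment, 0 of 9 genes had a p below 0.05, against 12.4% of all genes, and the smallest unadjusted p in edgeR was 0.169, for *RELB*. DESeq2 and limma voom also called 0 of 9. The values of the lines did not overlap for 2 of 9 genes, *RELB* and *NFKBIE*, against 42.5% of all genes tested. The median standard error of these genes was 0.0914 on the log2 scale, compared with 0.145 over all genes. The parts of depth and of spread in this were not separated. The 95% intervals of the 9 genes together reached from 0.714-fold to 1.26-fold, and for 7 of 9 the whole interval lay within 1.25-fold either way. That limit was not among the planned results. Its share over all genes tested was not computed, so the count describes no trait of these genes. For any single gene, the smallest two-sided p of an exact permutation test in this design is 0.333, and the intervals rest on the spread that edgeR shares across genes.

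**Figure D1:**
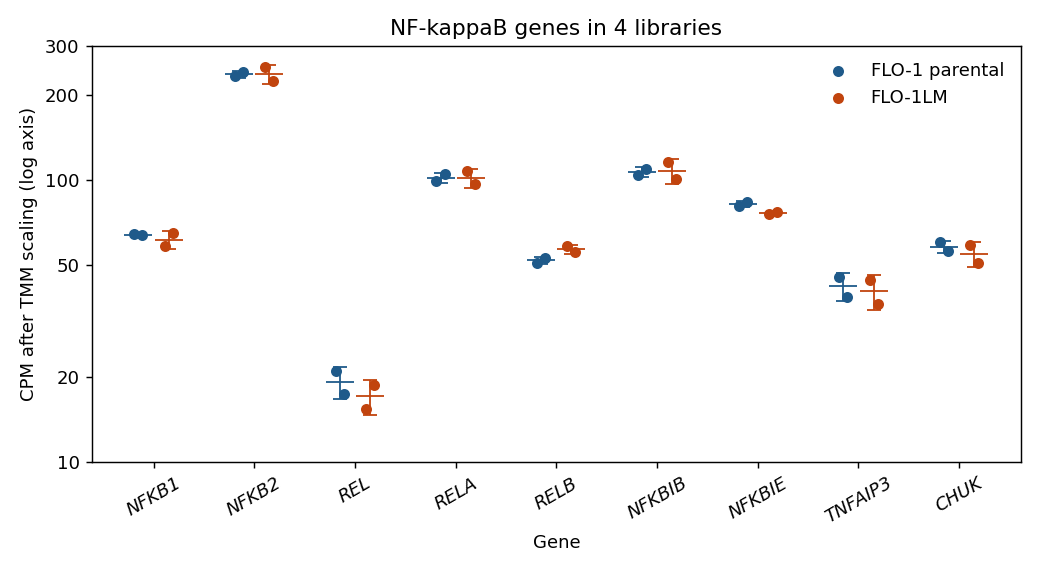
Level of each tested NF-kappaB gene in CPM (log axis) in the 4 libraries. Each point is 1 library, the long bar is the mean of a line and the whiskers are 1 SD (n = 2). The points of the lines interleave for every gene except *RELB* and *NFKBIE*.

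Among the subunits that form the canonical dimers, *RELA* (chr11:65421070-65430561, minus strand), which encodes p65, the main transactivating subunit, was measured at 108 and 96.6 CPM in FLO-1LM and at 99.2 and 105 CPM in parental cells. The highest and the lowest value both came from FLO-1LM, and the parental values lay between them. The mean was 102 ± 7.83 CPM in FLO-1LM and 102 ± 4.01 CPM in parental cells (SD, n = 2 each). The fold change was 1.00 (95% interval 0.885 to 1.13), with an edgeR adjusted p of 0.997.

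*NFKB1* (chr4:103422487-103538459, plus strand), which encodes p105 and its product p50, had 58.3 and 64.7 CPM in FLO-1LM and 64.2 and 64.0 CPM in parental cells. One FLO-1LM library was the lowest of the 4 and the other was the highest. Its log2 fold change was -0.06 ± 0.0914 (SE), equal to 0.959-fold (0.840 to 1.10), with an edgeR adjusted p of 0.874.

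*REL* (chr2:61108626-61158747, plus strand), which encodes c-Rel, a subunit best known from lymphocytes, was measured at 15.4 and 18.8 CPM in FLO-1LM and at 21.0 and 17.4 CPM in parental cells, from 333 to 485 counts. The lines overlapped, and *REL* had the widest interval of the 9 genes. Its log2 fold change was -0.16 ± 0.154, equal to 0.893-fold (0.714 to 1.12), with an edgeR adjusted p of 0.761. Exons of *REL* overlap those of an unnamed noncoding gene on the same strand (chr2:61153044-61158745), listed at 0 in every library. How reads of the shared bases were counted is not stated, so the level of *REL* may miss them.

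The subunits of the main noncanonical dimer are *NFKB2* and *RELB*. *NFKB2* (chr10:104153867-104162281, plus strand), which encodes p100 and its product p52, had 252 and 225 CPM in FLO-1LM and 234 and 243 CPM in parental cells. As for *RELA*, the parental values lay between the FLO-1LM values, and the means were 238 ± 19.1 and 238 ± 6.43 CPM. The fold change was 0.999 (0.893 to 1.12) and the edgeR adjusted p was 0.996.

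*RELB* (chr19:45504719-45541450, plus strand), the partner of p52, was the only subunit whose lines did not overlap. Its values were 58.4 and 55.4 CPM in FLO-1LM and 50.7 and 53.0 CPM in parental cells. Both FLO-1LM libraries lay above both parental libraries, by a log2 fold change of 0.13 ± 0.0929, or 1.10-fold (0.958 to 1.26). The difference did not pass the test (edgeR adjusted p = 0.636).

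Of the inhibitors, *NFKBIB* (chr19:39390340-39399533, plus strand), which encodes IkappaBbeta, had 116 and 101 CPM in FLO-1LM and 104 and 110 CPM in parental cells. Again the parental values lay between the FLO-1LM values. The log2 fold change was 0.02 ± 0.0867, or 1.01-fold (0.891 to 1.15), with an edgeR adjusted p of 0.971. Exons of *NFKBIB* overlap exons of *SIRT2*, a deacetylase gene on the opposite strand (chr19:39369195-39390502). *SIRT2* was at 114.9 ± 10.7 and 103.0 ± 1.593 CPM, with a log2 fold change of 0.16 and an edgeR adjusted p of 0.486. The libraries kept strand, but the strand setting of the counting is not stated, so reads of the shared bases may have been counted for either gene.

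*NFKBIE* (chr6:44225903-44233525, minus strand), which encodes IkappaBepsilon, had 76.0 and 77.1 CPM in FLO-1LM and 80.9 and 83.5 CPM in parental cells. Both FLO-1LM libraries lay below both parental libraries, the opposite order to *RELB*. The log2 fold change was -0.10 ± 0.0835, or 0.930-fold (0.824 to 1.05), and it did not pass the test (edgeR adjusted p = 0.699).

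*TNFAIP3* (chr6:138188351-138204451, plus strand) encodes A20, a ubiquitin-editing enzyme that NF-kappaB induces and that limits its activation. It was measured at 44.2 and 36.3 CPM in FLO-1LM and at 45.3 and 38.6 CPM in parental cells. In each line one library was clearly above the other, and the lines overlapped. The log2 fold change was -0.06 ± 0.116, or 0.958-fold (0.808 to 1.13), with an edgeR adjusted p of 0.896. *WAKMAR2*, a noncoding gene on the opposite strand whose exons overlap those of *TNFAIP3*, had only 10 to 21 counts per library.

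The kinase gene *CHUK* (chr10:101948057-101989353, minus strand), which encodes IKKalpha and is needed for p100 processing, had 58.8 and 50.9 CPM in FLO-1LM and 60.1 and 56.1 CPM in parental cells. The lowest value was a FLO-1LM library and the highest a parental library, and the lines overlapped. The log2 fold change was -0.08 ± 0.0982, or 0.943-fold (0.817 to 1.09), with an edgeR adjusted p of 0.815.

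*IKBKE* (chr1:206643819-206670222, plus strand) encodes IKKepsilon, a kinase related to the IkappaB kinases. The identifier that the naming table pairs with *IKBKE* was listed at 0 in all 4 libraries. A count of 0 allows up to 3 counts, or 0.116 to 0.157 CPM depending on the library, counting error only. The naming table gives no symbol for 20046 of the 63677 identifiers, of which 4678 had counts and together took 1.57% to 1.74% of the counts. Reads of *IKBKE* may therefore stand under an identifier that could not be named here, and the 0 was not read as a lack of expression. *IKBKG*, which encodes the regulatory subunit NEMO, was listed at 0 in the same way.

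For most of these genes the libraries of 1 line differed from each other by more than the lines did. The difference between the lines was smaller than the larger of the 2 within-line differences for 7 of 9 genes, all but *RELB* and *NFKBIE*. A difference between means varies less than one between single libraries, so this order is common where lines do not differ. Its share over all genes tested was not computed, so the count describes no trait of these genes. Between the lines, the median absolute log2 fold change was 0.06 over the 9 genes and 0.14 over all genes tested. The FLO-1LM libraries were 0.29 apart on the log2 scale for *REL*, 0.28 for *TNFAIP3*, 0.21 for *CHUK* and *NFKBIB*, 0.16 for *NFKB2* and *RELA*, and 0.15 for *NFKB1*. The parental libraries were 0.27 apart for *REL*, 0.23 for *TNFAIP3* and 0.10 or less for the others. The median absolute log2 difference over the 9 genes was 0.16 between the FLO-1LM libraries and 0.08 between the parental libraries, and 0.18 and 0.13 over all genes tested.

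**Figure D2:**
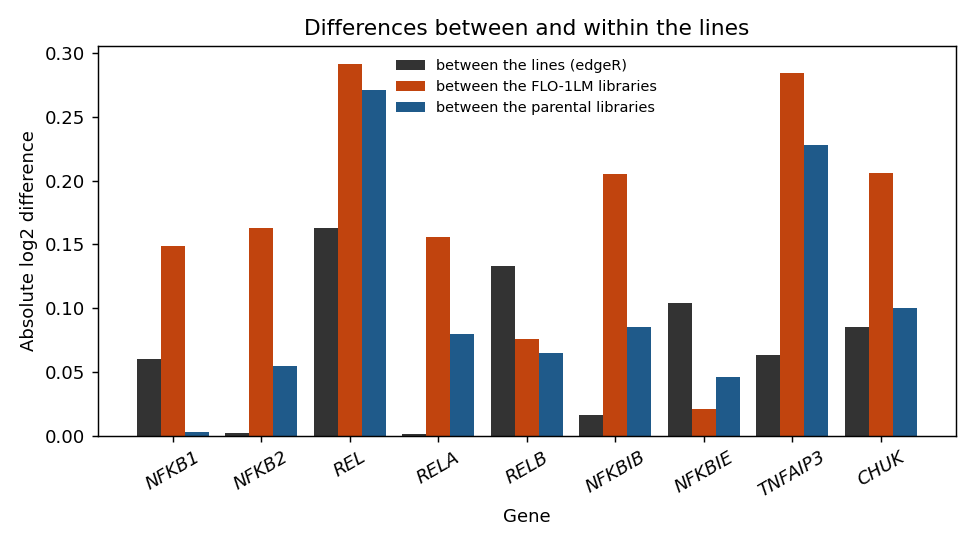
Absolute log2 difference of each tested NF-kappaB gene between the lines (dark), between the FLO-1LM libraries (orange) and between the parental libraries (blue). The dark bar is the tallest of its group only for *RELB* (0.13) and *NFKBIE* (0.10).

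Levels can be compared between genes only per exon length. On the scale of CPM per kilobase of all exon bases of a gene, averaged over the 4 libraries, *NFKBIB* (46.4) and *NFKB2* (42.7) were highest, followed by *NFKBIE* (30.8), *RELA* (18.7), *RELB* (18.1), *CHUK* (8.18), *TNFAIP3* (6.38), *NFKB1* (4.01) and *REL* (1.06). *NFKBIB* and *NFKB2* were not separated by their spread over libraries (43.3 to 49.9 and 40.3 to 45.1), nor were *RELA* and *RELB* (17.7 to 19.7 and 16.9 to 19.5). The other neighbors in this order did not overlap, but the order depends on the length used. Per kilobase of the MANE Select transcript, *NFKBIB* (90.4), *NFKB2* (79.1), *RELA* (40.5), *NFKBIE* (33.9) and *RELB* (24.1) came first. *CHUK* (15.7) and *NFKB1* (15.5), whose values overlapped, followed with *TNFAIP3* (8.81) and *REL* (1.63). *RELA* thus stood above *NFKBIE*, and *NFKB1* above *TNFAIP3*, opposite to the order over all exon bases, and *REL* was lowest with both lengths. Per kilobase of the longest transcript, *NFKB2* (69.9, from 65.9 to 73.8) stood above *NFKBIB* (49.0, from 45.7 to 52.7), and *REL* (1.61) was again lowest. Over all exon bases, *NFKBIB* stood at percentile 94.1 of all genes tested, *NFKB2* at 93.4, *NFKB1* at 46.8 and *REL* at 22.7. The *REL* values may miss reads of the exon bases shared with the noncoding gene.

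Within the 5 subunits, *NFKB2* thus held about as much of the summed level as the other 4 together. In FLO-1LM its share was 50.7% and 49.3%, and in parental cells 50.9% in both libraries. *RELA* held 22.2% and 21.7% in FLO-1LM and 22.1% and 22.5% in parental cells. *NFKB1* and *REL* were minor components, at 4.18% to 5.05% and 1.01% to 1.49% across the libraries. The share of *REL* may be too low, since reads of its shared exon bases may be missing. The share of *RELB* was 21.9% and 22.6% in FLO-1LM and 20.6% and 20.7% in parental cells. The difference in means was 1.65 percentage points (22.3 ± 0.504 and 20.6 ± 0.0931%). The lines did not overlap, which by level also held for 42.5% of all genes tested. These shares depend on the length used, since *NFKB1* has 15679 exon bases over all its transcripts and 4055 in the MANE Select transcript. With that transcript the share of *NFKB1* over all 4 libraries was 9.65% in place of 4.75%. In FLO-1LM the means of *RELB* and *RELA* were 22.3% and 21.9% over all exon bases and 15.6% and 25.1% with the MANE Select transcript, so their order turned with the length. The share of *RELB* was higher in FLO-1LM with either length.

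**Figure D3:**
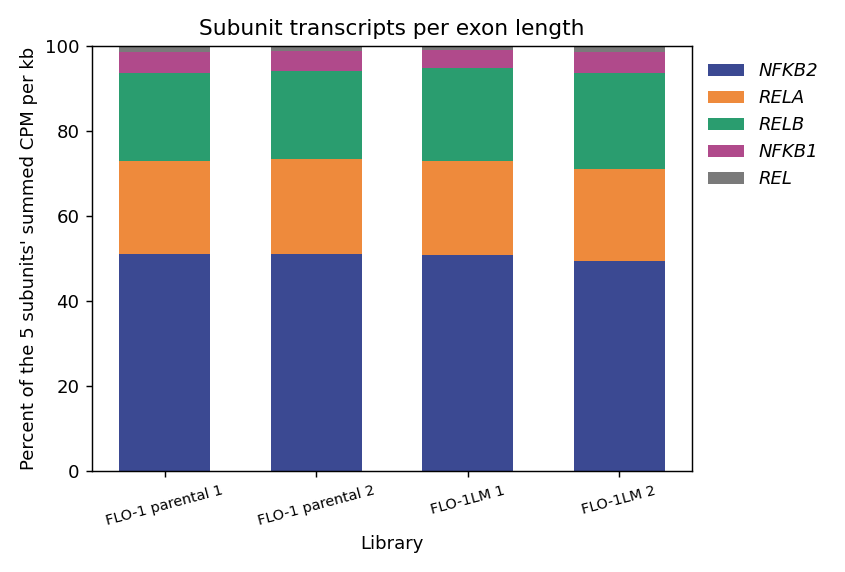
Share of each NF-kappaB subunit in the summed CPM per kilobase of the 5 subunits, in percent, with 1 bar per library. *NFKB2* takes 49.3% to 50.9% of each bar, and *RELB* takes 21.9% and 22.6% in FLO-1LM and 20.6% and 20.7% in parental cells.

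Ratios per kilobase of all exon bases set genes of the same library side by side. The ratio of *RELB* to *RELA* was 0.988 and 1.04 in FLO-1LM and 0.931 and 0.922 in parental cells. The ratio of *NFKB2* to *RELB*, the subunits of the main noncanonical dimer, was 2.31 and 2.18 in FLO-1LM and 2.48 and 2.46 in parental cells. For *NFKBIB* plus *NFKBIE* over *REL*, *RELA* and *RELB* combined, the ratio was 1.98 and 1.96 in FLO-1LM and 2.10 and 2.11 in parental cells. That sum leaves out the inhibitor gene *NFKBIA* (43.8 CPM per kilobase), so it does not describe the balance of all inhibitors and subunits. The lines did not overlap in any of these 3 ratios, and each holds *RELB* or *NFKBIE*. By level, the lines also did not overlap for 42.5% of all genes tested, and no such share was computed for ratios. The ratios were not among the planned results. *NFKB2* over *NFKB1* (9.76 to 12.1), *RELA* over *REL* (14.9 to 21.9) and *NFKBIB* over *NFKBIE* (1.43 to 1.70) overlapped between the lines. With the MANE Select transcript the ratio of *RELB* to *RELA* was 0.605 and 0.639 in FLO-1LM and 0.570 and 0.564 in parental cells, *NFKB2* over *NFKB1* 4.68 to 5.81 and *NFKBIB* over *NFKBIE* 2.53 to 3.0. Whether the lines overlapped was the same for all 6 ratios with that length. No permutation test can pass with 2 libraries a line, so these are descriptions.

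None of the other core genes of the pathway passed the test either. Of 8, 7 were tested and 0 were called in edgeR, against 2.23% of all genes, and 1 had an unadjusted p below 0.05, against 12.4%. The median log2 fold change was -0.10, compared with 0.00 over all genes tested and -0.06 over the 9 genes above. *NFKBIA*, which encodes IkappaBalpha, the inhibitor most directly induced by NF-kappaB, had 151 and 136 CPM in FLO-1LM and 154 CPM in both parental libraries. Its log2 fold change was -0.10 ± 0.0789, with an edgeR adjusted p of 0.688. *NFKBIZ*, which encodes the nuclear IkappaBzeta, was the gene with the unadjusted p below 0.05. It had 29.2 and 30.7 CPM in FLO-1LM and 41.6 and 35.8 CPM in parental cells, a log2 fold change of -0.37 ± 0.113 that did not pass after adjustment (edgeR adjusted p = 0.119). Among the other nuclear or atypical inhibitors, *BCL3* had a log2 fold change of -0.19 ± 0.109 and *NFKBID* one of 0.14 ± 0.122. Among the kinases, the log2 fold change was 0.09 ± 0.0999 for *IKBKB*, which encodes IKKbeta, 0.16 ± 0.0902 for *TBK1*, and -0.11 ± 0.0804 for *MAP3K14*, which encodes NIK. The adjusted p in edgeR was between 0.511 and 0.809 for these 5 genes. The lines overlapped for *BCL3* and *IKBKB* and did not overlap for the other 5 of the 7 tested genes, against 42.5% of all genes.

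**Figure D4:**
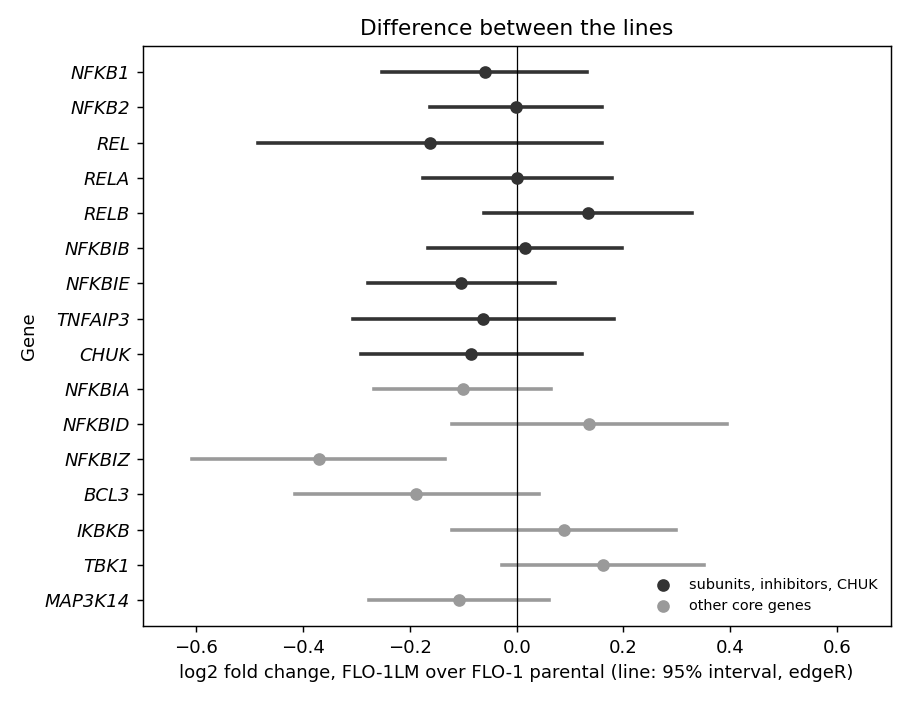
Log2 fold change of FLO-1LM over FLO-1 parental with its 95% interval from edgeR, for the 9 tested NF-kappaB genes (black) and the 7 other tested core genes (grey). Every interval except that of *NFKBIZ* includes 0.

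Upstream, 27 of 29 receptors and adaptors were tested, and in edgeR 1 was called lower in FLO-1LM and 0 higher, against 1.83% and 0.402% of all genes tested. At an unadjusted p below 0.05 there were 7 of 27, against 12.4% of all genes, and the median log2 fold change was -0.003. *TNFRSF1B*, which encodes the TNF receptor TNFR2, fell from 76.6 and 77.3 CPM in parental cells to 58.3 and 48.0 CPM in FLO-1LM. The log2 fold change was -0.54 ± 0.0990 (edgeR adjusted p = 0.00516), and it did not pass without parental library 1 (adjusted p = 0.0952) or without parental library 2 (0.0962), at nearly the same size. The next genes by p did not pass. *IRAK2* had a log2 fold change of -0.33 (edgeR adjusted p = 0.0786), *IRAK1* of 0.26 (0.0824) and *TRAF6* of 0.44 (0.213), all of them signal transducers of the interleukin-1 and Toll-like receptors. The 2 untested receptor genes, named after their values were seen, were *TLR4*, at 0 counts in every library, and *LTBR*, at 0 to 3 counts.

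Of 12 other negative regulators, 10 were tested and 0 were called in edgeR, against 2.23% of all genes. At an unadjusted p below 0.05 there were 2 of 10, against 12.4% of all genes, and the median log2 fold change was -0.05. The smallest p belonged to *TNIP1*, which encodes a partner of A20. It had 222 and 200 CPM in FLO-1LM and 260 and 251 CPM in parental cells, a log2 fold change of -0.27 ± 0.0765 (edgeR adjusted p = 0.0781). *TAX1BP1*, an adaptor of A20, had a log2 fold change of 0.17 (edgeR adjusted p = 0.301), and *ZC3H12A*, an RNase that degrades inflammatory transcripts, one of -0.28 (0.491).

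Of 36 known target genes, 26 were tested, and in edgeR 2 were called lower in FLO-1LM and 0 higher, against 1.83% and 0.402% of all genes tested. At an unadjusted p below 0.05 there were 9 of 26, against 12.4% of all genes. The median log2 fold change was 0.02, with a range from -1.01 to 1.28. Both ends, named after their values were seen, were genes with few counts that did not pass the test. They were *NOS2* (8 to 26 counts per library) and *CCL20* (9 to 35 counts). *CX3CL1*, the chemokine fractalkine, fell from 175 and 191 CPM in parental cells to 104 and 91.3 CPM in FLO-1LM, a log2 fold change of -0.90 ± 0.0850 (edgeR adjusted p = 4.08e-06). *SDC4*, the heparan sulfate proteoglycan syndecan-4, fell from 558 and 501 CPM to 398 and 415 CPM, a log2 fold change of -0.38 ± 0.0735 (edgeR adjusted p = 0.00767). Without parental library 1, *SDC4* did not pass (-0.30, adjusted p = 0.348). Over the 26 target genes, 14 log2 fold changes were above 0 and 12 below.

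The next target genes by p lay on both sides of 0. *CCL2*, a monocyte chemokine, had 465 and 387 CPM in FLO-1LM and 354 and 335 CPM in parental cells, a log2 fold change of 0.31 (edgeR adjusted p = 0.0654). The paper, which used limma voom, reports *CCL2* as significantly upregulated in FLO-1LM. Here limma voom gave an adjusted p of 0.0588. *PLAU*, the urokinase gene, had 641 and 591 CPM in FLO-1LM and 736 and 722 CPM in parental cells, or -0.24 (edgeR adjusted p = 0.0852). *GADD45B*, a stress response gene, had 51.6 and 52.6 CPM in FLO-1LM and 37.7 and 44.3 CPM in parental cells, or 0.35 (edgeR adjusted p = 0.105).

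Some target genes, named after their values were seen, had counts well above the filter in both lines and did not pass the test. *ICAM1*, an adhesion receptor, was at 352 ± 6.43 and 331 ± 3.41 CPM, and *BIRC3*, which encodes the survival factor cIAP2, at 176 ± 9.54 and 172 ± 18.8 CPM. Cytokine genes differed in level. *CSF1* was at 58.5 and 69.8 CPM in FLO-1LM and parental cells, *LIF* at 18.1 and 14.0 CPM and *TNF* at 7.51 and 7.91 CPM, none of them past the test. Of the 10 target genes not tested, *SOD2* had no identifier that matched. The other 9 (*CXCL8*, *CXCL1*, *CXCL3*, *CCL5*, *IL6*, *IL1A*, *IL1B*, *BCL2A1* and *PTGS2*) had 0 to 16 counts in any library. As for *IKBKE*, reads of *CCL5* may stand under an identifier that could not be named here. Its 0 in every library was therefore not read as a lack of expression. In the promoter windows, the kappaB consensus was present in 13 of 28 target genes (46.4%), 4 of 7 other core genes (57.1%), 3 of 11 negative regulators (27.3%) and 2 of 25 receptors and adaptors (8.0%), against the 7.09% of all genes given above.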

How the data were processed

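The authors prepared libraries with the NEBNext Ultra directional kit and sequenced them on an Illumina NextSeq. Per the paper and the submitters' processing notes, reads were called with bcl2fastq 2.17, trimmed with Trimmomatic 0.30 and mapped to GRCh37. Which aligner and counter were used, with which strand option and how multiply mapped reads were handled, is not given in the sources used here. The deposited values are raw counts per Ensembl gene, 1 file per library, with no normalization.

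Libraries were grouped by the line in their labels. Counts were filtered with filterByExpr (minimum count 10, minimum total 15), which left 17143 of 63677 genes, scaled by TMM (factors 0.985 to 1.015) and tested with edgeR 4.0.16 (estimateDisp, glmQLFit, glmQLFTest) in R 4.3.3. P-values were adjusted by Benjamini and Hochberg over all genes tested and called below 0.05. The standard error is the absolute log2 fold change over the square root of F. The common biological coefficient of variation was 0.0899, at total counts of 19060310 to 25920336. The scripts were tested on simulated data.

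Identifiers were named from a table of gene symbols, which matched all 10 genes and 122 of 124 list genes. Positions and exon lengths come from the GENCODE annotation lifted to GRCh37, later than the one counted on. The 10 genes, the lists and the tests were chosen with earlier results of these data known. Named genes are the 10, all other core genes, the genes that overlap one of the 10 and were tested, and in each further pathway list those called plus the 3 with the smallest p. Alternatives were DESeq2 1.42.0, RLE factors, library totals only, no filter, limma voom (limma 3.58.1), a stricter filter of 10 counts in every library, mitochondrial genes left out, other transcript lengths, and each library left out in turn.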

Additional observations from a re-analysis of the deposited data

How the results depend on the processing

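None of the 9 tested NF-kappaB genes was called in any of the 11 alternatives (7 settings and 4 left-out libraries), and REL, RELB and NFKBIE had the same direction in all 11. Small values near 0 changed sign. RELA was at -0.03 with library totals only, -0.0047 with at least 10 counts in every library, -0.0012 in limma voom and -0.000244 without mitochondrial genes, and NFKBIB at -0.0157 with library totals only, which moved the median of all genes by -0.0309. Leaving out 1 library gave -0.137 to 0.0124 for NFKB1, -0.0853 to 0.078 for NFKB2, -0.0786 to 0.078 for RELA, -0.0898 to 0.115 for NFKBIB, -0.21 to 0.0733 for TNFAIP3 and -0.191 to 0.0157 for CHUK, and further -0.0313 to 0.199 for IKBKB and -0.311 to 0.582 for WAKMAR2. RELB stayed at 0.095 to 0.171 and NFKBIE at -0.128 to -0.0826.

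The number of genes called was 337 in DESeq2, 368 in limma voom and 577 without the filter, and 97 to 1095 with 1 library left out (1095 and 1086 without a FLO-1LM library, 97 and 109 without a parental one), where the lone library is assumed to vary like the others. The cause was not tested. Receptors and adaptors had 2 calls with library totals only and 0 to 5 with a library left out. Other negative regulators had 1 with library totals only, 1 without the filter and 0 to 1 with a library left out. Target genes had 4 in DESeq2, 4 without the filter and 1 to 7 with a library left out, and other core genes 0 to 1. In DESeq2 and without the filter, CCL2 (adjusted p = 0.0449 and 0.00197) and PLAU (0.0423 and 0.0169) passed. The genes listed next are only those named by the rule above that did not pass in the Results, so they are fewer than the calls just given. Without FLO-1LM library 1, BCL3, GADD45B, IRAK1, IRAK2, PLAU and TNIP1 passed (adjusted p from 0.00199 to 0.0381), and without FLO-1LM library 2, CCL2, GADD45B, IRAK1, IRAK2 and NFKBIZ did (1.3e-05 to 0.0435). TNIP1 (0.0378), IRAK2 (0.0438) and PLAU (0.0386) passed with library totals only, and TNIP1 (0.0211) without the filter.

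With the longest transcript as length, the shares in FLO-1LM and parental cells were 6.38% and 6.71% for NFKB1, 23.3% and 23.6% for RELA, 18.4% and 16.9% for RELB, and 51.5% for NFKB2 in parental cells. With the MANE Select transcript, an alternative chosen after seeing the data, they were 9.42% and 9.88% for NFKB1, 48.9% and 49.4% for NFKB2, 25.1% and 25.3% for RELA, 15.6% and 14.3% for RELB, and 1.08% for REL in parental cells. No paired analysis was possible because the labels give no replicate number that the lines share. REL, with 333 to 485 counts, had the largest standard error of the 9 genes (0.154), and the parts of depth and of spread in it were not separated.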
